A study of Homo sapiens with 6 samples.

Results

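The amino acid response genes described here are 42 genes in 4 roles: 12 regulators and effectors around the transcription factor ATF4, 9 enzymes of amino acid and one-carbon synthesis, 9 amino acid transporters and 12 cytosolic tRNA synthetases. They were taken by gene name from the 57290 genes of the annotation, and the TPM of all transcripts of each gene was summed. The cells were KMM1, a human cell line established from a multiple myeloma. In the TAZ group (3 libraries) the cells carried a lentivirus that expresses TAZ, a transcriptional coactivator encoded by WWTR1. In the control group (3 libraries) they carried the empty vector WPI, so both groups were transduced. Polyadenylated RNA was collected on day 4 after transduction in both groups and sequenced on an Ion Torrent Proton instrument. Separate cultures for the libraries of a group are not named in the labels, and a p-value therefore covers only the variation among these libraries, which may be technical. In bulk RNA, fewer expressing cells and less RNA per cell cannot be told apart.

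ATF4 is a leucine zipper transcription factor made from an mRNA that is translated preferentially when the initiation factor eIF2 is phosphorylated, for example when uncharged tRNA activates the kinase GCN2 or when unfolded protein activates PERK. With C/EBP partners it binds composite elements near genes for amino acid import, amino acid synthesis and tRNA charging, so that the supply of charged tRNA is restored. In plasma cells and myeloma cells, which secrete large amounts of immunoglobulin, this pathway runs beside the unfolded protein response of the endoplasmic reticulum. ATF4 itself is regulated largely at translation, so its mRNA level is a separate quantity from its activity.

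WWTR1 had a scaled TPM of 2.35, 1.21 and 1.40 in control libraries 1 to 3 and of 365, 138 and 145 in TAZ libraries 1 to 3, in accord with the labels. TPM is a share of all transcripts of a library that allows for transcript length, and scaled TPM is TPM divided by a library factor that ranged from 0.873 to 1.23. The libraries held between 1099.95 and 2033 aligned megabases. Summed plasma cell markers (10 genes, all reaching 1 TPM in a library) ranged from 1220 to 2000 scaled TPM in the control libraries and from 1120 to 1300 in the TAZ libraries. That sum is dominated by XBP1, which was listed at 157 in control library 2 and at 908 and 1051 in the other control libraries. Of the 9 plasma cell markers tested, 3 were called lower by limma, SDC1 (-1.43), IRF4 (-1.13) and SLAMF7 (-1.61), and 8 lay below 0, with a median of -0.69. Of all tested genes, 0.964% were called lower and 54.8% lay below 0. Summed T and NK cell markers, of which 1 of 8 reached 1 TPM, ranged from 2.26 to 3.39 and from 2.72 to 3.12, with NKG7 listed at 0 in all 6 libraries. Summed myeloid markers (2 of 6 reached 1 TPM) ranged from 5.09 to 5.87 and from 1.98 to 2.06, and LYZ was listed at 0 in 5 of the 6 libraries. Summed fibroblast and stroma markers (3 of 7 reached 1 TPM) ranged from 2.16 to 2.90 and from 37.9 to 44.8, led by COL1A1 (1.43 to 2.04) in the control libraries and by LUM (31.3 to 38.4) in the TAZ libraries, while THY1 stayed at or below 0.0712. Summed epithelial markers (6 of 7 reached 1 TPM) ranged from 198 to 326 and from 972 to 2310, most of it KRT8, while KRT19 stayed at or below 0.113. The epithelial genes did not move as 1: of the 6 tested, 4 were called higher by limma, against 2.25% of all tested genes. CDH1 lay lower in every TAZ library (52.2, 57.0 and 36.95 against 17.1, 28.4 and 30.15, at -0.94) without passing, and EPCAM was at 0.04. The myeloid, stroma and epithelial sums and the called plasma cell markers moved with the groups, and the T and NK cell sums overlapped. The part of these markers in the results below was not tested.

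In the deposited values, whole exons of a gene can be listed at or near 0 in 1 or more libraries while its other exons are covered. Such libraries can also be all those of a group, as for TARS below. A segment of an exon was called missing in a library where its depth was under 5% of its median over the 6 libraries, for segments of at least 50 bases and a median of at least 5 on the scaled TPM scale. Of the 41 members that passed the filter, 31 (75.6%) had at least 1 such segment, against 28.5% of all tested genes and 52.7% of tested genes whose mean level reached 20 scaled TPM. The mean depth over the exon segments that were not missing, called exon depth below, is therefore a second measure, which was added after the data were seen. The plot of differences shows it for every tested member. A true loss or gain of such size is removed by this measure too: WWTR1 itself, at 6.22 ± 0.41 (SE) on the log2 scale by scaled TPM, was at 2.16 by exon depth. The cause of the missing segments was not tested.

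Of the 41 members tested, 3 were called lower in TAZ libraries and 0 were called higher, where a call is an adjusted p under 0.05 from limma over all 19390 tested genes. Over all tested genes, 0.964% were called lower and 2.25% higher (187 and 436 genes; 3.21% in all, or 85 and 533 genes without scaling). No member was called lower without control library 1 or 2 or TAZ library 2 or 3, or with no filter on low values, and 1 was without control library 3 (CEBPB) or without scaling (SLC7A5). VLDLR, a lipoprotein receptor listed among the ATF4 regulated genes, was at 0.0320 to 0.0587 scaled TPM in all 6 libraries and was not tested. At an unadjusted p under 0.05, 11 members were lower and 2 higher, against 18.0% of all tested genes in either direction. The TAZ libraries lay wholly below the control libraries for 13 members and wholly above them for 2, against 14.8% and 10.1% of all tested genes (24.9% in all). The median log2 difference of the 41 members was -0.40, with 32 of them below 0. That of all tested genes was -0.05, with 54.8% below 0. The members are abundant genes, with a median of 61.6 scaled TPM against 9.14, and the 5893 tested genes with at least 20 scaled TPM had a median difference of -0.18, with 64.8% below 0 and 21.3% wholly lower. The 1259 tested genes with at least 100 scaled TPM, a level that 16 members reached, had a median of -0.26, with 72.1% below 0 and 23.5% wholly lower, against 78.0% and 31.7% of the members tested. With no filter on low values the median over all 42 members was -0.39, against 0.01 over 46603 genes. The medians of the 4 roles were below 0 under each of the 4 scalings tried, from -0.46 to -0.70 for the regulators, -0.07 to -0.33 for synthesis, -0.39 to -0.65 for the transporters and -0.12 to -0.38 for the synthetases. By exon depth, 3 members were called lower and 2 higher (1.11% and 2.17% of 18201 genes, 3.28% in all), and 19 lay wholly lower and 2 wholly higher (15.5% and 9.9%, 25.4% in all).

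**Figure D1:**
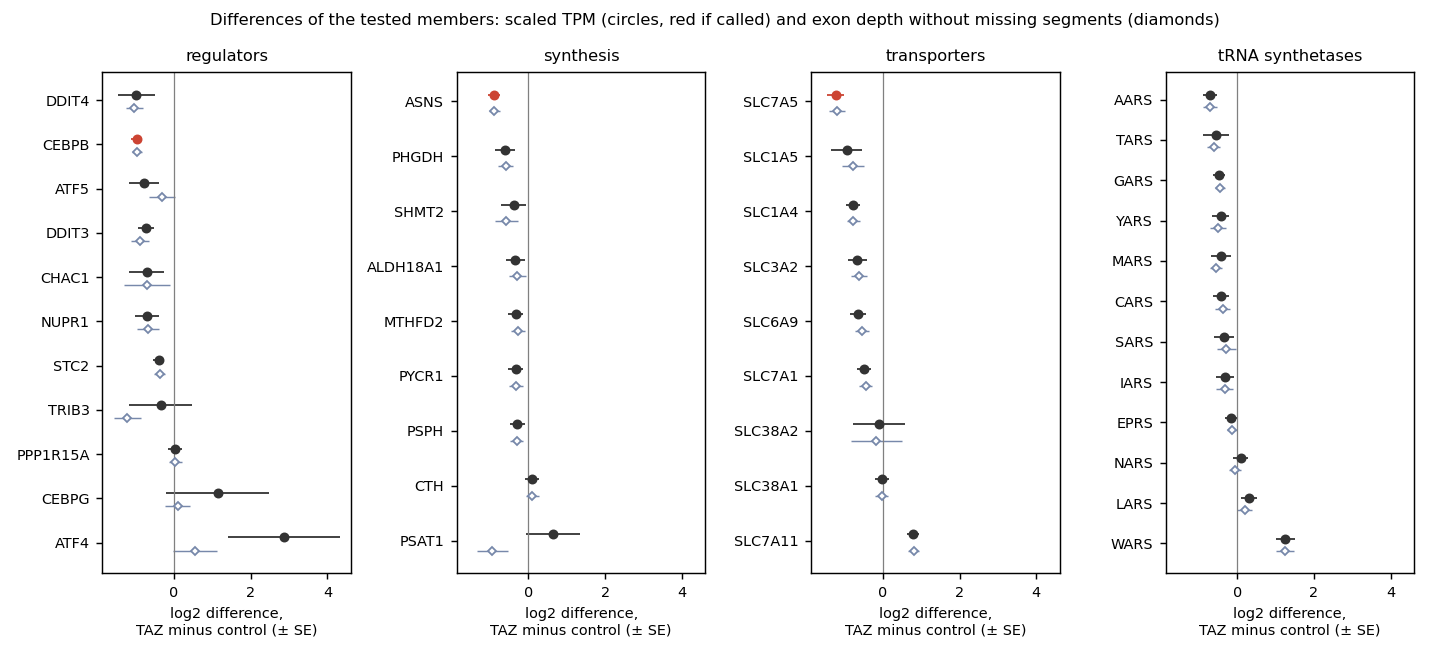
Log2 difference (TAZ minus control, x axis) of the 41 tested members in 4 panels by role, as circles with bars of 1 SE for scaled TPM and as open diamonds for exon depth. The 3 called members, CEBPB, ASNS and SLC7A5, are red, and ATF4, TRIB3, CEBPG and PSAT1 show the widest bars and the largest shifts between the measures.

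RefSeq promoter windows of 300 bases (250 before to 50 after an annotated start, build GRCh38.p14) matched 34 of the 42 members. NUPR1, PSPH, SHMT2, PYCR1, SLC7A11, EPRS, LARS and YARS had no entry. The letters TGATGNAA, the core of the composite element that C/EBP and ATF factors bind, were searched on both strands. They stood in a window of 15 of the 34 genes (44.1%), against 4.46% of all 27305 genes in the table. Counted by window, the shares were 27.8% of 54 member windows and 3.62% of all 35116 windows. The members were listed as genes of the ATF4 response, so this share is not independent of how they were chosen. The letters TGACGTCA (a cAMP response element) stood in 2.94% of the members and 2.25% of all genes, CACGTG (an E-box) in 14.7% and 8.77%, and GGAATG (the core bound by TEAD factors, the DNA-binding partners of TAZ) in 11.8% and 16.7%. The 4 motifs do not contain one another. The 15 genes were AARS, ASNS, CARS, CEBPG, CHAC1, GARS, IARS, MARS, NARS, SLC1A4, SLC1A5, SLC38A1, SLC3A2, SLC7A1 and TARS. Their median log2 difference was -0.49, with 13 of 15 below 0. The 18 tested members whose windows lacked the motif had a median of -0.34, with 13 below 0. A match of letters is a description and not a binding site.

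The stretch before the start is shown for the 7 genes whose motif lay wholly upstream of it, so that the letters counted above can be seen in place. ASNS was the only synthesis enzyme among the 15 genes. The motif begins 68 bases before the start in ASNS, 209 in CHAC1, 42 in CEBPG, 97 in SLC1A5, 187 in AARS, 33 in GARS and 13 in IARS. The intervals on GRCh38.p14 are chr7:97872429-97872516 (minus strand) for ASNS, chr15:40953222-40953309 (plus strand) for CHAC1, chr19:33374031-33374112 (plus strand) for CEBPG and chr19:46784864-46784951 (minus strand) for SLC1A5. Those of the tRNA synthetases are chr16:70289646-70289733 (minus strand) for AARS, chr7:30594805-30594877 (plus strand) for GARS and chr9:92293698-92293750 (minus strand) for IARS. Sequences run 5′ to 3′ on the strand of the gene, and capitals mark the motif, which reads as its reverse complement in CHAC1, AARS, GARS and IARS.
ASNS: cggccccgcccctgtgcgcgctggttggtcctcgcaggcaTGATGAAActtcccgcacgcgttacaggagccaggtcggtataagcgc
CHAC1: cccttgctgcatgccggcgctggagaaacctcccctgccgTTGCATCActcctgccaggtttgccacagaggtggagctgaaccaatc
CEBPG: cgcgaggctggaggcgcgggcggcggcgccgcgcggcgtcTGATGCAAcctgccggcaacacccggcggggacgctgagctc
SLC1A5: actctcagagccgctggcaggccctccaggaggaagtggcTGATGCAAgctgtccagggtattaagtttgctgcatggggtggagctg
AARS: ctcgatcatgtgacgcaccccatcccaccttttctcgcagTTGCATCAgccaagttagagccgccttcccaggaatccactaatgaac
GARS: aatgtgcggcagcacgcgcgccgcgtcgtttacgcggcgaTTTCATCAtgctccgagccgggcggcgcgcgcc
IARS: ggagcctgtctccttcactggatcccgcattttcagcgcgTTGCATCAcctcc

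Among the regulators and effectors, CEBPB was called lower and no other of the 11 tested genes was called. CEBPB, a leucine zipper factor that dimerizes with other C/EBP and ATF proteins, is a gene with a single exon (hg19 chr20:48807376-48809212, plus strand). Its scaled TPM was 65.6, 67.8 and 60.9 in the control libraries and 33.8, 32.3 and 31.8 in the TAZ libraries. All 3 TAZ libraries lay near the same level, well below every control library. The log2 difference was -0.97 ± 0.14 (SE; limma adjusted p = 0.0185), and no segment of the gene was missing (-0.96 ± 0.13 by exon depth). It was not called without control library 1 or 2 or TAZ library 2 or 3 (adjusted p 0.06 to 0.113), at log2 differences of -0.93 to -0.96.

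DDIT3 (CHOP), a C/EBP family factor induced under prolonged stress, had 107, 66.8 and 80.1 scaled TPM in the control libraries and 49.9, 46.3 and 54.1 in the TAZ libraries. Every TAZ library was below every control library, and the difference of -0.72 ± 0.21 did not pass (limma adjusted p = 0.155). By exon depth DDIT3 was at -0.89 ± 0.23 (limma adjusted p = 0.103), and the groups were again apart. DDIT3 shares 355 exonic bases with MARS on the opposite strand, and its TPM moved between transcripts from library to library (ENST00000547303.1 took 0% of it in control library 1 and 100% in control library 3), so its level is less certain. STC2, a secreted glycoprotein, had 12.8, 12.3 and 12.1 scaled TPM against 9.59, 9.67 and 8.19. These groups did not overlap either, with a difference of -0.40 ± 0.15 (limma adjusted p = 0.238).

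ATF4 (hg19 chr22:39915700-39918691, plus strand) had 33.8, 16.6 and 1077 scaled TPM in the control libraries and 531, 530 and 890 in the TAZ libraries. Control libraries 1 and 2 were far below the other 4 libraries, and control library 3 was the highest of all 6. The log2 difference was 2.86 ± 1.46 (limma adjusted p = 0.355), and without control library 3 it was 4.67 and would be called (adjusted p = 0.00557). The low values came with a missing segment of 911 bases at the 3′ end (hg19 chr22:39917778-39918688), whose depth was 4.64, 4.05 and 1456 in the control libraries and 1077, 1072 and 1221 in the TAZ libraries. The segment of 318 bases before it, covered in every library, had depths of 122, 41.0 and 255 against 161, 158 and 190. On that segment control library 2 was low, control library 3 was high and the TAZ libraries lay between control libraries 1 and 3. By exon depth the ATF4 difference was 0.54 ± 0.57 (limma adjusted p = 0.638). Both measures thus left ATF4 short of the threshold, at sizes that differed widely. Its segments of 188 and 602 bases at the 5′ end were in turn missing in TAZ libraries 1 and 2. The processed pseudogene ATF4P3, whose sequence is close to that of ATF4, was listed at 153, 116 and 112 against 95.2, 98.9 and 100 scaled TPM.

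TRIB3, a pseudokinase that binds ATF4 and is also its target, had 26.2, 190 and 261 scaled TPM in the control libraries and 108, 79.4 and 75.6 in the TAZ libraries. Control library 1 was the lowest of the 6 and the other 2 control libraries were the highest, so the groups overlapped, at -0.34 ± 0.82 (limma adjusted p = 0.855). In control library 1 the last 3 segments of TRIB3 were missing, and the last of them (811 bases, hg19 chr20:377393-378203) had a depth of 0.143, against 282 and 369 in the other control libraries and 115 to 146 in the TAZ libraries. The segment of 160 bases at hg19 chr20:368655-368814, covered in all libraries, had depths of 138, 189 and 250 against 111, 53.9 and 64.6. On it each TAZ library lay below each control library. On the covered segments of 553 and 293 bases the groups overlapped, with TAZ library 1 above control library 1. Depths were 20.7, 24.8 and 49.7 against 20.9, 7.42 and 13.55 on the segment of 553 bases. On that of 293 bases they were 40.3, 45.65 and 93.6 against 44.45, 22.65 and 21.25. By exon depth TRIB3 differed by -1.21 ± 0.36 and did not pass (limma adjusted p = 0.149).

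DDIT4, an inhibitor of mTORC1 signalling, had 83.7, 46.6 and 114 scaled TPM against 53.7, 52.5 and 19.7. The groups overlapped, at -0.98 ± 0.48 (limma adjusted p = 0.344). A segment of 1086 bases at its 3′ end was listed at 0 in control library 2 and in TAZ library 3. The adjoining 256 bases, covered everywhere, had depths of 99.1, 108 and 137 against 62.2, 60.7 and 45.4, so there the TAZ libraries all lay lower. By exon depth DDIT4 differed by -1.03 ± 0.23 (limma adjusted p = 0.0723).

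CHAC1, an enzyme that degrades glutathione, had 23.6, 34.7 and 29.0 scaled TPM against 36.1, 13.4 and 10.2. TAZ library 1 was the highest of the 6 and the other 2 TAZ libraries were the lowest, at -0.71 ± 0.45 (limma adjusted p = 0.445; -0.70 ± 0.61 by exon depth). All of the TPM of CHAC1 was assigned to ENST00000446533.3 in TAZ library 1 and to ENST00000444189.2 in the other 5 libraries. A segment of 273 bases covered in every library (hg19 chr15:41247748-41248020) had depths of 87.2, 96.3 and 110 against 49.4, 34.9 and 26.7. There every TAZ library, TAZ library 1 included, lay below every control library. On another segment, of 666 bases, TAZ library 1 was the highest, at 15.3 against 0.235 to 13.4 in the control libraries. CEBPG, a C/EBP protein that pairs with ATF4, had 70.6, 0.829 and 58.7 against 39.6, 47.7 and 41.0. Its only low value, in control library 2, came with a missing exon of 3543 bases, and in the remaining libraries the TAZ levels of scaled TPM lay below the control levels. By exon depth, over the shorter segments left, CEBPG was at 1.48, 3.58 and 5.24 against 3.51, 3.29 and 3.48. There control library 1 was the lowest of the 6 and the groups overlapped, at 0.10 ± 0.33 (limma adjusted p = 0.903). By scaled TPM CEBPG differed by 1.14 ± 1.35, and without control library 2 by -0.59 (limma adjusted p = 0.685 and 0.346).

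The remaining regulators did not pass and overlapped between the groups. ATF5, a second ATF factor of this response, was at 29.9, 38.2 and 62.9 against 34.7, 14.9 and 25.6 scaled TPM (-0.78 ± 0.38), with 626 of its exonic bases shared with NUP62 on the opposite strand. NUPR1, a small stress-induced chromatin protein, was at 5.36, 4.26 and 9.0 against 4.33, 3.49 and 2.24 (-0.70 ± 0.31). PPP1R15A (GADD34), which recruits a phosphatase to eIF2 and so ends the response, was at 167, 147 and 117 against 148, 144 and 142. Its difference was 0.02 ± 0.18, the smallest among the regulators.

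**Figure D2:**
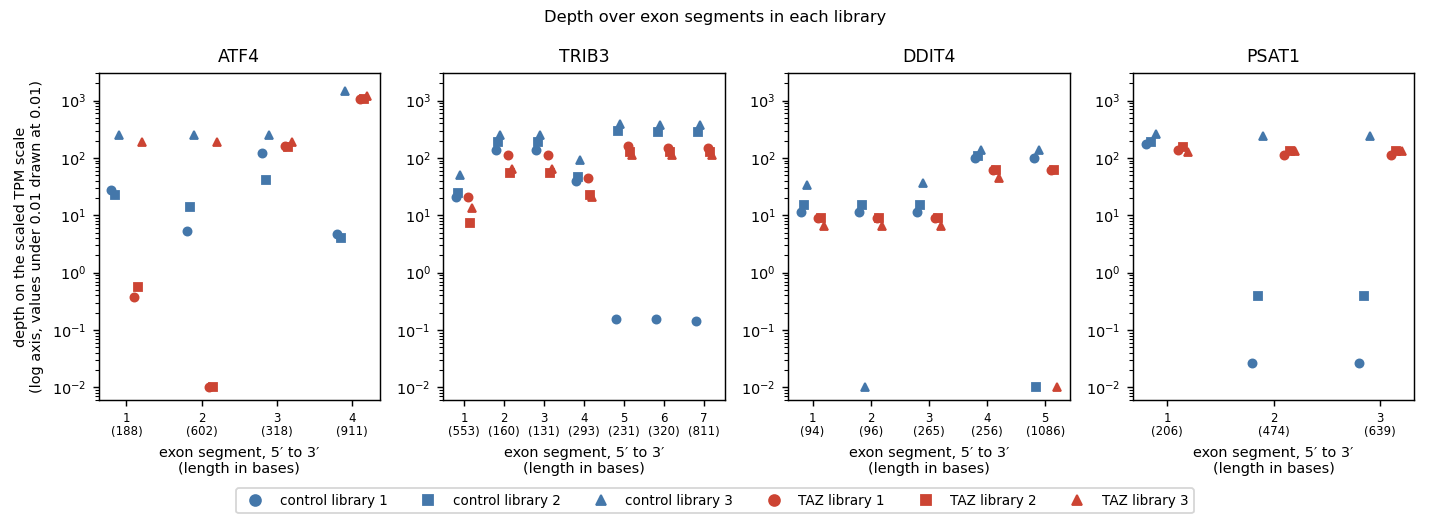
Depth on the scaled TPM scale (y axis, log, values under 0.01 drawn at 0.01) over exon segments of ATF4, TRIB3, DDIT4 and PSAT1 from 5′ to 3′ (x axis, lengths in bases), with 1 symbol per library, for segments of at least 50 bases and a median of at least 1. The last segments drop by over 100-fold in single libraries, for example to 0.143 in TRIB3 in control library 1, while the 4 segments nearest the 5′ end of TRIB3 and DDIT4 and the first segment of PSAT1 stay covered in those libraries.

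Of the 9 synthesis enzymes, ASNS was called lower and 0 were called higher, with 7 of 9 below 0 and a median log2 difference of -0.33. ASNS, asparagine synthetase, which makes asparagine from aspartate and glutamine, lies at hg19 chr7:97481430-97501854 on the minus strand. Its scaled TPM was 247, 298 and 292 in the control libraries and 154, 150 and 141 in the TAZ libraries. The TAZ libraries were close together and all below the lowest control library. The difference was -0.90 ± 0.16 (limma adjusted p = 0.0367), and -0.89 ± 0.14 by exon depth (adjusted p = 0.0230). ASNS was not called when any 1 of the 6 libraries was left out (adjusted p 0.0578 to 0.173), at differences of -0.85 to -0.99. Between 82.9% and 90.1% of its TPM was assigned to ENST00000175506.4 in each library.

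The serine and one-carbon enzymes did not pass. PHGDH, the first enzyme of serine synthesis, was at 60.1, 66.9 and 86.9 against 63.3, 42.6 and 36.4 scaled TPM (-0.60 ± 0.26, limma adjusted p = 0.288). TAZ library 1 lay among the controls and TAZ libraries 2 and 3 lay below them. By exon depth PHGDH lay lower in all 3 TAZ libraries, at -0.59 ± 0.20 (limma adjusted p = 0.193). PSAT1, the second enzyme, was at 16.4, 50.4 and 148 against 70.6, 86.3 and 79.6 (0.64 ± 0.71). In control libraries 1 and 2 the last 1113 bases of PSAT1 were missing, with depths of 0.0261 and 0.395 against 113 to 241 in the other 4 libraries. An exon of 206 bases covered everywhere (hg19 chr9:80919651-80919856) had depths of 174, 190 and 263 against 139, 152 and 126, so there every TAZ library was below every control library. By exon depth PSAT1 differed by -0.94 ± 0.40 (limma adjusted p = 0.272), the opposite sign to its scaled TPM.

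PSPH, which completes serine synthesis, differed by -0.29 ± 0.20. SHMT2, the mitochondrial enzyme that splits serine into glycine and a one-carbon unit, was at 161, 332 and 173 against 202, 149 and 141 scaled TPM (-0.38 ± 0.32). MTHFD2, the next enzyme of the mitochondrial folate pathway, was at 85.2, 123 and 110 against 78.9, 85.6 and 84.6 (-0.33 ± 0.19). SHMT2 was high in control library 2 alone, and MTHFD2 in control libraries 2 and 3. The proline enzymes ALDH18A1 and PYCR1 differed by -0.34 ± 0.25 and -0.33 ± 0.20, and PYCR1 was the most abundant synthesis gene at 346 to 542 scaled TPM. CTH, which makes cysteine from cystathionine, was the least abundant at 3.93 to 5.63 and differed by 0.10 ± 0.18.

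The transporters had the largest share of members with groups that did not overlap: 6 of 9 lay wholly lower and 1 wholly higher in TAZ libraries. Of all tested genes 14.8% lay wholly lower and 10.1% wholly higher, and of those with at least 20 scaled TPM 21.3% lay wholly lower. The median difference of the transporters was -0.65. SLC7A5 (LAT1) exchanges glutamine for leucine and other large neutral amino acids and needs the heavy chain SLC3A2 (CD98hc) to reach the membrane. SLC7A5 (hg19 chr16:87863629-87903094, minus strand) had 230, 248 and 298 scaled TPM in the control libraries and 142, 96.7 and 94.7 in the TAZ libraries. Every TAZ library was below the lowest control library, and TAZ library 1 was the highest of the TAZ libraries. It fell by 1.23 ± 0.22 on the log2 scale (limma adjusted p = 0.0381; -1.20 ± 0.21 by exon depth, adjusted p = 0.0329), the lowest difference among the 41 tested members by scaled TPM. SLC7A5 was not called without any 1 of the control libraries or without TAZ library 2 or 3 (adjusted p 0.0661 to 0.18), at differences of -1.13 to -1.31. The pseudogene SLC7A5P2 had 28.2, 24.9 and 38.0 scaled TPM against 17.2, 13.9 and 13.7 (-0.96, limma adjusted p = 0.071), and reads shared with it could be split between the copies.

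SLC3A2 itself had 318, 276 and 378 scaled TPM in the control libraries and 274, 167 and 185 in the TAZ libraries. TAZ library 1 lay just below control library 2, and the others were clearly lower. The difference was -0.66 ± 0.25 (limma adjusted p = 0.24). The transcript ENST00000544377.1 took 55.4% of the TPM of SLC3A2 in control library 1 and at most 1.46% in any other library. In 4 libraries segments of SLC3A2 were missing, so its level is less certain. By exon depth the groups were again apart, at -0.63 ± 0.21 (limma adjusted p = 0.18). SLC7A11 (xCT), the other light chain among the members, pairs with the same heavy chain to import cystine in exchange for glutamate. SLC7A11 had 5.90, 6.29 and 5.62 scaled TPM against 9.51, 12.4 and 11.4. It lay higher in every TAZ library, at 0.79 ± 0.16, and did not pass (limma adjusted p = 0.0607), whereas by exon depth it passed narrowly at 0.80 ± 0.15 (adjusted p = 0.0428). SLC7A11 shares 865 of its 9645 exonic bases with SLC7A11-AS1 on the opposite strand, which averaged 0.0916 scaled TPM in the control libraries and 3.01 in the TAZ libraries. The use of strand in assigning reads is not known, and reads of the pair cannot be told apart.

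The small neutral amino acid carriers were also lower without passing. SLC1A4 (ASCT1) had 57.1, 59.5 and 68.5 scaled TPM against 42.9, 33.4 and 30.8, at -0.78 ± 0.19 (limma adjusted p = 0.0931), and no segment of it was missing. The groups were apart, with TAZ library 1 nearest to the controls. SLC1A5 (ASCT2), the main glutamine carrier of many tumour cells, had 493, 586 and 659 against 470, 156 and 365, at -0.94 ± 0.41 (limma adjusted p = 0.297). Its lowest value, in TAZ library 2, came with a missing segment of 824 bases, and by exon depth the difference was -0.78 ± 0.28 (limma adjusted p = 0.201). SLC6A9 (GlyT1), a glycine carrier, had 10.3, 8.43 and 10.4 against 7.55, 4.91 and 5.18, at -0.65 ± 0.20 (limma adjusted p = 0.176). SLC7A1 (CAT1), which imports arginine and lysine, had 45.0, 35.2 and 34.5 against 30.4, 26.7 and 23.4, at -0.49 ± 0.19 (limma adjusted p = 0.243). In both genes the highest TAZ library was below the lowest control library by a small margin.

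The system A carriers differed from the others in that their groups overlapped. SLC38A1 was at 86.9, 82.9 and 72.1 against 65.9, 90.2 and 81.5 scaled TPM, at -0.03 ± 0.18, and its sign turned under every other scaling. SLC38A2 (SNAT2), whose mRNA rises on amino acid starvation, was at 39.4, 44.4 and 32.1 against 10.5, 65.4 and 65.6, at -0.09 ± 0.68. TAZ library 1 alone was low for SLC38A2, where 5 adjoining segments at its 3′ end had a depth of 4.33 against 48.4 to 93.0 in the other libraries. Without TAZ library 1 the SLC38A2 difference was 0.76 (limma adjusted p = 0.122).

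**Figure D3:**
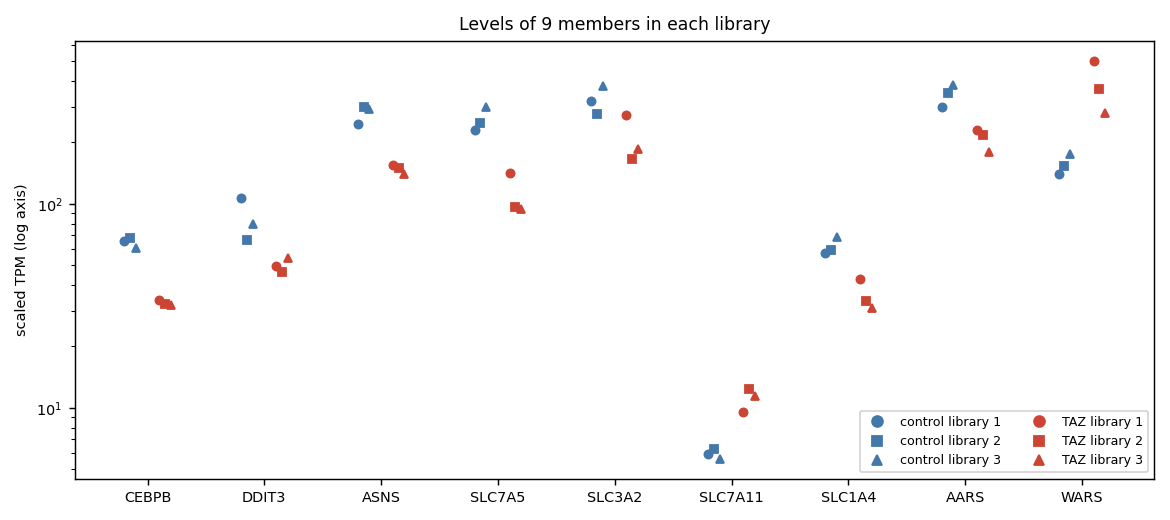
Scaled TPM (y axis, log) of 9 members (x axis) in each library, control in blue and TAZ in red, with 1 symbol per library number. CEBPB, DDIT3, ASNS, SLC7A5, SLC3A2, SLC1A4 and AARS lie lower in all 3 TAZ libraries and SLC7A11 and WARS lie higher, of which CEBPB, ASNS and SLC7A5 passed the test.

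None of the 12 cytosolic tRNA synthetases was called at an adjusted p under 0.05 by limma. An unadjusted p under 0.05 was found for 3, AARS and GARS lower and WARS higher, against 18.0% of all tested genes. The median difference of the 12 synthetases was -0.38, with 9 of 12 below 0. AARS, which charges tRNA with alanine, had 297, 351 and 382 scaled TPM in the control libraries and 231, 217 and 180 in the TAZ libraries. All TAZ libraries were lower, at -0.71 ± 0.19 (limma adjusted p = 0.119). GARS, the glycine enzyme, had 135, 128 and 149 against 107, 96.8 and 90.6, also apart, at -0.48 ± 0.16 (limma adjusted p = 0.196). CARS, the cysteine enzyme, had 29.8, 33.5 and 45.6 against 27.5, 24.1 and 27.9, at -0.42 ± 0.20 (limma adjusted p = 0.333). The CARS groups were separated by less than the spread within either group.

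WARS, the tryptophan enzyme, is known as an interferon-inducible gene besides its place in this pathway. It had 140, 153 and 175 scaled TPM in the control libraries and 504, 366 and 280 in the TAZ libraries. Every TAZ library lay above every control library, with TAZ library 1 the highest. The difference was 1.25 ± 0.25 and did not pass (limma adjusted p = 0.0545). By exon depth it was 1.25 ± 0.23 and passed (adjusted p = 0.0423), as it did without scaling (1.51, 0.0051), with upper quartile scaling (1.35, 0.0286) and with quantile normalization (1.49, 0.0067). The transcript ENST00000392882.2 took 98.0% to 98.9% of its TPM in every library, and no segment was missing.

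The other 8 synthetases overlapped between the groups. TARS (threonine), YARS (tyrosine), MARS (methionine) and SARS (serine) differed by -0.55 ± 0.33, -0.43 ± 0.22, -0.42 ± 0.26 and -0.34 ± 0.26. IARS (isoleucine) and EPRS (glutamate and proline) differed by -0.32 ± 0.24 and -0.17 ± 0.15. NARS (asparagine) and LARS (leucine) were above 0, at 0.09 ± 0.20 and 0.30 ± 0.21. By exon depth TARS and MARS were wholly lower in the TAZ libraries, at -0.61 ± 0.17 and -0.56 ± 0.16 (limma adjusted p = 0.129 and 0.143). For TARS this measure leaves out adjoining segments of 106 and 57 bases (hg19 chr5:33461007-33461169), among others. Their depths were 98.7, 107 and 127 in the control libraries and 0 in every TAZ library, and the cause was not tested.

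The libraries of a group did not sit at the same level for these genes. The median deviation of the 41 members from each gene's mean over the 6 libraries was 0.13, 0.15 and 0.37 (log2) in control libraries 1 to 3 and 0.01, -0.26 and -0.33 in TAZ libraries 1 to 3. Over all tested genes the same medians lay between -0.05 and 0.07. Control library 3, which had the fewest aligned megabases (1099.95), was the highest, and TAZ library 1, which had the highest WWTR1 level, lay nearest to the controls among the TAZ libraries. The excess of WWTR1 in TAZ library 1 differed by exon segment. Depths in TAZ libraries 1 to 3 were 3721, 2962 and 2311 on a segment of 105 bases. On a segment of 266 bases they were 2481, 198 and 199. The part of depth or of the WWTR1 level in this order was not tested. Among the transporters every control library lay above every TAZ library, with medians of 0.29, 0.15 and 0.42 against -0.07, -0.47 and -0.43. The same held by a smaller margin for the regulators (lowest control median 0.05, highest TAZ median 0.04) and the synthetases (0.01 and -0.04). Among the synthesis enzymes control library 1 (-0.06) lay below TAZ library 1 (0.11), so there the medians of the groups overlapped.

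**Figure D4:**
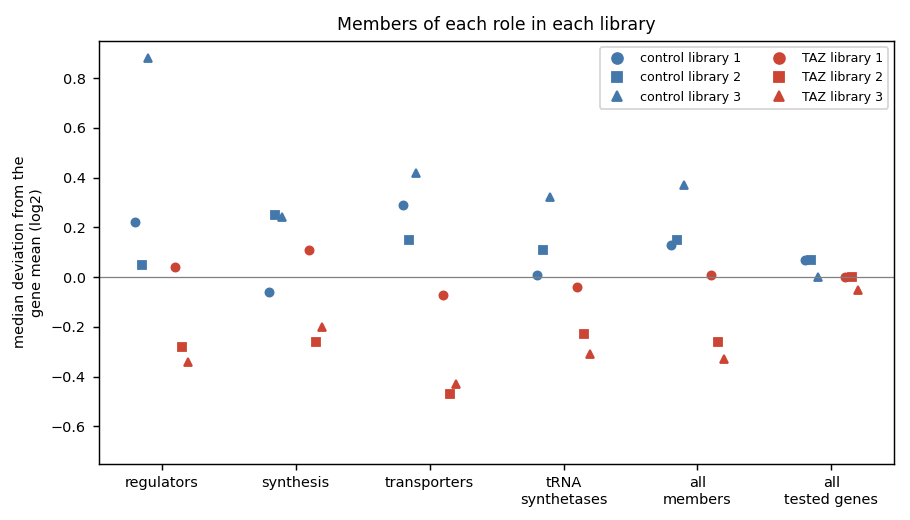
Median deviation from the gene mean (log2, y axis) of the members of each role, of all 41 tested members and of all 19390 tested genes (x axis), with 1 symbol per library. TAZ library 1 lies at 0.01 for all members, between the other TAZ libraries (-0.26 and -0.33) and the controls (0.13 to 0.37).

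Of the other genes of the pathway, 151 in 7 lists, 9 of 139 tested were called, 3 higher and 6 lower (6.47%, against 3.21% of all tested genes). Among 17 tested genes of eIF2 signalling, EIF2AK1 (HRI), an eIF2 kinase that senses heme and mitochondrial stress, was called higher and EIF2S2, the beta subunit of eIF2, was called lower. EIF2AK1 had 21.5, 23.1 and 23.7 scaled TPM in the control libraries and 60.0, 61.6 and 54.5 in the TAZ libraries. The groups were far apart, and EIF2AK1 rose by 1.33 ± 0.15 (limma adjusted p = 0.00557), a call that held in 17 of 18 alternatives. EIF2S2 had 180, 174 and 167 against 108, 92.2 and 93.8, at -0.82 ± 0.15 (limma adjusted p = 0.0434). It was called in 9 of 18 alternatives, and not without any 1 of the control libraries or TAZ library 2 or 3 (adjusted p 0.0583 to 0.219).

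Of 29 other tested ATF4 target genes, INHBE, a subunit of activin E, was called lower and 0 were called higher, with a median of 0.13. In this list 18 genes lay above 0 and 11 below, where 54.8% of all tested genes lay below. INHBE had 77.2, 97.7 and 118 scaled TPM against 47.2, 36.6 and 36.6, at -1.25 ± 0.21 (limma adjusted p = 0.0322), but by exon depth it was at -0.87 with an adjusted p of 0.309. INHBE was called without control library 1, and not without any other 1 of the libraries (adjusted p 0.0508 to 0.159). Of 28 other synthesis enzymes, GOT1, the cytosolic aspartate aminotransferase, was called lower and 0 higher. GOT1 had 89.0, 102 and 92.0 against 40.2, 37.1 and 46.1, at -1.18 ± 0.16 (limma adjusted p = 0.013), and was not called without control library 2 or TAZ library 2 (0.0724 and 0.0819).

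Of 19 other tested amino acid transporters, SLC1A3 and SLC7A7 were called higher and 0 lower. SLC1A3 (EAAT1), which imports glutamate and aspartate, had 0.514, 0.781 and 0.432 scaled TPM against 15.8, 21.6 and 17.1. It rose by 3.60 ± 0.19 (limma adjusted p = 4.15e-04), and was called in all 18 alternatives. SLC7A7 (y+LAT1), another light chain of SLC3A2, had 5.61, 3.90 and 4.53 against 18.9, 16.8 and 11.2, at 1.53 ± 0.24 (limma adjusted p = 0.0223). SLC7A7 was called in 11 of 18 alternatives, and not without control library 2 or 3 or TAZ library 1 or 2 (adjusted p 0.0508 to 0.12). The light chains of SLC3A2 thus stood on both sides, with SLC7A5 called lower and SLC7A7 called higher.

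Of 11 other cytosolic synthetase genes, FARSB, a subunit of the phenylalanine enzyme, was called lower and 0 higher, and 10 of 11 lay below 0 with a median of -0.25 (0 without scaling). FARSB had 36.2, 34.4 and 36.3 scaled TPM against 21.2, 18.2 and 20.9, at -0.80 ± 0.15 (limma adjusted p = 0.0431), and was called in 5 of 18 alternatives, but not when any 1 of the 6 libraries was left out (adjusted p 0.0613 to 0.216). Of 17 mitochondrial tRNA synthetases 0 were called by limma. An unadjusted p under 0.05 was found for 5, all lower, against 18.0% of all tested genes in either direction. The median of the 17 was -0.19 (0.06 without scaling, where that of all genes was 0.17). Of 18 genes of the chaperone arm of the endoplasmic reticulum, 2 were called lower, ERN1 (-1.12 ± 0.16) and HERPUD1 (-1.46 ± 0.20), and 0 higher, with a median of -0.28 (XBP1 of this list is also among the plasma cell markers). ERN1 was called in 10 of 18 alternatives and HERPUD1 in 14.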

How the data were processed

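RNA of 3 control and 3 TAZ libraries was analysed. Per the submitters' processing notes, hg19, STAR 2.3.0, Bowtie2 2.0.0 and StringTie 1.3.3b were used. The authors deposited, for each transcript and exon of each library, coverage, FPKM and TPM values. The annotation release and the use of strand are not given in the sources used here. The deposited values hold no read counts, so tests for counts were not run. Libraries were pooled in pairs on a sequencing chip per the labels' protocols, and which pairs is not given there. Differences between chips could therefore not be taken into account and may add to those between the groups.

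TPM was summed per gene, and scaled by the median of ratios over 28148 genes above 0 in all libraries. The test was limma 3.58.1 (R 4.3.3; trend and robust, two-sided), fitted to log2 of scaled TPM plus a pseudocount of 1 for the 19390 genes whose mean reached 1 TPM. Benjamini-Hochberg adjustment ran over these genes, at 0.05. Log2 differences on this scale understate the change of low genes. The median SE was 0.24. The procedure was tested on simulated data. Exon depth is the length-weighted mean of deposited exon coverage, converted to the TPM scale. Members and lists were chosen with earlier results of these data known. Every member was given a value; those past the threshold, those whose groups did not overlap, and ATF4, DDIT3, TRIB3 and CHAC1 were given in full, and of the pathway lists the genes past the threshold. Alternatives are 16 planned and 2 added after the data were seen.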

Additional observations from a re-analysis of the deposited data

How the results depend on the processing

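The count of members called lower (3) was 0 with no filter, 1 without scaling and between 0 and 2 when 1 library was left out. The count of members called higher (0) was 1 without scaling and with quantile normalization, 2 with upper quartile scaling and 2 by exon depth without missing segments, and between 0 and 1 when 1 library was left out. The count over all genes (623) was 352 with no filter, and between 278 and 774 when 1 library was left out (410 and 349 without control replicates 1 and 2, 278 and 331 without TAZ replicates 2 and 3). The median of the members (-0.40) was -0.16 without scaling and -0.24 with quantile normalization. The median of all tested genes then was 0.17 and -0.04, so the members lay 0.33 and 0.21 below it, against 0.35 in the analysis reported. The cause of these changes was not tested.

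Samples with the same replicate number did not deviate together (correlations of 0.004, -0.024 and -0.055), and they were not paired in the main test. These correlations cannot show whether such samples shared a culture or a chip, which the labels do not give. With the replicate number as a block, 0 members were called lower and 236 genes were called in all.

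The sign of some members turned. With the most abundant transcript alone ATF5 was at 1.72, DDIT3 at 2.20 and NARS at -0.11. Without control replicate 1 PSAT1 was at -0.13, SLC38A1 at 0.02 and NARS at -0.01. Without control replicate 2 TRIB3 was at 0.05, CEBPG at -0.59 and SLC38A2 at 0.02. Without control replicate 3 TRIB3 was at 0.28 and PPP1R15A at -0.12. Without TAZ replicate 1 SLC38A1 was at 0.09 and SLC38A2 at 0.76. Without scaling SLC38A1, SLC38A2 and EPRS were at 0.23, 0.17 and 0.09. With upper quartile scaling SLC38A1 and SLC38A2 were at 0.07 and 0.01, and with quantile normalization at 0.14 and 0.06. Over the sets with 1 library left out, TRIB3 ranged from -1.35 to 0.28, CEBPG from -0.59 to 2.07, PSAT1 from -0.13 to 1.41, SLC38A2 from -0.51 to 0.76 and NARS from -0.01 to 0.25. By exon depth over all segments NARS was at -0.04. Without missing segments NARS was at -0.05 and PSAT1 at -0.94. Limits: with 3 libraries per group the median SE was 0.24 on the log2 scale, and exact permutation of these groups could not go below p = 0.1. The depth allows no interval, since no read counts were used.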
